A study of Homo sapiens with 30 samples.

Results

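Checkpoint ligands of T cells and macrophages were followed through chronic IFN-γ exposure in 2 glioblastoma lines, at the level of RNA. The group held 10 genes, taken by symbol from the deposited table of each line, out of 61471 genes listed. These were CD274 (PD-L1) and PDCD1LG2 (PD-L2), the B7 family genes CD276 (B7-H3), VTCN1 (B7-H4), VSIR (VISTA) and ICOSLG, the TNF receptor family genes CD40 and TNFRSF14 (HVEM), LGALS9 (galectin-9), and CD47, the ligand that macrophages read through SIRPα. All 10 had a row in both tables. Of these, 9 in each line had a mean of at least 0.5 TPM and were tested. VTCN1 was below that mean in U87 and VSIR was below it in U251.

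Immune checkpoints are pairs of a ligand on a target cell and a receptor on an immune cell that raise or lower the activity of that cell. CD274 and PDCD1LG2 bind PD-1 and restrain activated T cells, ICOSLG and CD40 take part in costimulation, TNFRSF14 binds BTLA and CD160 as an inhibitory ligand and LIGHT (TNFSF14) as a receptor, and CD47 gives phagocytes a signal not to engulf the cell. IFN-γ signals through its receptor and JAK kinases, and the transcription factor IRF1 is known to activate CD274 in tumor cells.

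U87 (U87-MG) and U251 (U251-MG) are established human glioblastoma lines, labelled wild type. RNA was sequenced from cells without IFN-γ (Untreated, labelled day 3), from cells held under IFN-γ for 3 days (D3), 14 days (D14) or 28 days (D28), and from cells of day 28 from which IFN-γ was withdrawn after day 14 (D28WO). The labels give 3 biological replicates to each of the 5 groups of a line, which the study describes as independent culture preparations. The dose is given as 1 µg/mL and as 1 µL/mL in the labels and as 10 ng/mL in the study's methods, which also place the Untreated collection at day 0. Both lines are listed as commonly misidentified and were not authenticated by the study. Untreated cells were collected at a single time, so time in culture and IFN-γ cannot be told apart at D14, D28 and D28WO, nor at D3 if that time was day 0. A pair of U87 columns with the same name was left out, which left 13 libraries in U87, with n = 2 at D3 and at D14, and 15 in U251.

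Values are TPM, a read level per length of transcript scaled to the total of a library, from a table normalized separately for each line, so tests were made within a line only. The study's sample sheet calls the tables CPM, but the lowest values above 0 fell with gene length, from a median of 0.682 in genes of up to 1000 exon bases to 0.0444 in those over 8000 in U87 and from 0.692 to 0.0432 in U251, as values per length do. TPM does not keep the depth of single libraries, and no lowest detectable level can be given for a gene listed at 0. Libraries listed 24223 to 30246 genes above 0. Of the glial markers, VIM and CD44 were abundant in both lines, SOX2 was at 0.219 TPM in Untreated U87 and 159 TPM in Untreated U251, and OLIG2 was listed at 0 in Untreated U251. Summed T cell markers reached at most 5.06 TPM in a library. Summed macrophage markers ran from 12.9 to 62.3 TPM in U87, nearly all of it CSF1R while AIF1 and C1QA were listed at 0. In U251 they ran from 4.14 to 4.52 TPM in Untreated, 6.73 to 9.70 at D3 and 6.07 to 8.24 at D14. At D28 of U251 they ran from 7.43 to 11.1 TPM and at D28WO from 4.30 to 5.17 TPM. CSF1R was lowest in D28WO of U87 (16.9 TPM). Summed glial markers of U251 went from 3734 to 3807 TPM in Untreated to 1519 to 1858 TPM at D3. They were at 2600 to 3006 TPM at D14, 1694 to 1935 at D28 and 2124 to 2197 at D28WO. In U87 they were at 2077 to 2293 TPM in Untreated, 1986 to 2064 at D3 and 2060 to 2129 at D14. At D28 they were at 2050 to 2198 TPM and at D28WO at 1720 to 1874 TPM. Summed endothelium markers of U251 went from 26.6 to 38.4 TPM in Untreated to 2.45 to 3.46 TPM at D3. They were at 9.79 to 21.4 TPM at D14, 4.16 to 4.82 at D28 and 4.31 to 8.80 at D28WO. The sums do not show single genes. Of 7 glial markers tested in U251 at D28, 6 were lower and 1 higher at an adjusted p under 0.05 (limma), against 14.7% and 25.9% of all genes. In U87 at D28, 3 of 7 were higher and 0 lower, against 17.2% and 6.55%. The part of these markers in the results was not tested. In bulk RNA, fewer cells with a transcript and less transcript per cell cannot be told apart.

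A gene is said to have risen or fallen where limma on log2(TPM + 1) gave an adjusted p under 0.05, and to have passed both limits where its log2 fold change was also beyond 1 in size. Log2 fold changes are given with the standard error (SE). All genes tested had median log2 fold changes against Untreated of 0.20 (D3), 0.15 (D14), 0.19 (D28) and 0.25 (D28WO) in U87, and of 0.13, 0.096, 0.16 and 0.015 in U251, and changes are to be read relative to these. Of the genes past both limits against Untreated, 85.8% to 93.8% were higher in U87 and 54.6% to 82.0% in U251. After quantile normalization these shares were 52.1% to 66.1% and 49.3% to 62.1%.

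The libraries labelled D14 stood apart before any ligand is considered. In U87 the IFN-γ target genes IRF1 (134 and 109.8 TPM) and IDO1 (0 and 0 TPM) were in these libraries near the Untreated means of 133 and 0.0795 TPM. D28WO cells, labelled as without IFN-γ after day 14, held 509.6 and 136 TPM. In U251 IDO1 was at 46.7, 36.00 and 52.6 TPM at D14, against 8.12, 8.24 and 7.55 TPM in Untreated and 303, 299 and 304 TPM in D28WO. In U251 IDO1 of all D14 libraries lay above Untreated, which it did not in U87. The levels of these genes go against the order of exposure in the labels. The cause was not tested, and the text below speaks of libraries labelled D14. D28WO is likewise known from its labels alone, and comparisons with it are to be read with the same limit.

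In U87, 4 of the 9 members tested were past both limits at D3, all of them higher (PDCD1LG2, CD40, TNFRSF14 and LGALS9), where 5.85% of all genes tested were higher. The same 4 genes were past both limits at D28, against 6.77% of all genes, and with VSIR they made 5 at D28WO, against 12.8%. In libraries labelled D14 only CD40 passed, against 1.89%. For the 9 members the median log2 fold change was 1.25 (D3), 0.13 (D14), 0.97 (D28) and 1.17 (D28WO).

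In U251, 4 of the 9 members tested were past both limits and higher at D3 (CD274, PDCD1LG2, TNFRSF14 and LGALS9), against 9.72% of all genes tested, and VTCN1 was past both limits and lower, against 4.55%. At D28 these 4 genes and CD40 were higher past both limits, against 11.9% of all genes. At D28WO the 4 genes were again higher, against 4.07%, and VTCN1 lower, against 3.38%. In libraries labelled D14 LGALS9 alone passed, against 4.72%. The median log2 fold change of the 9 members was 0.41, 0.28, 1.56 and 0.45 in the same order.

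**Figure D1:**
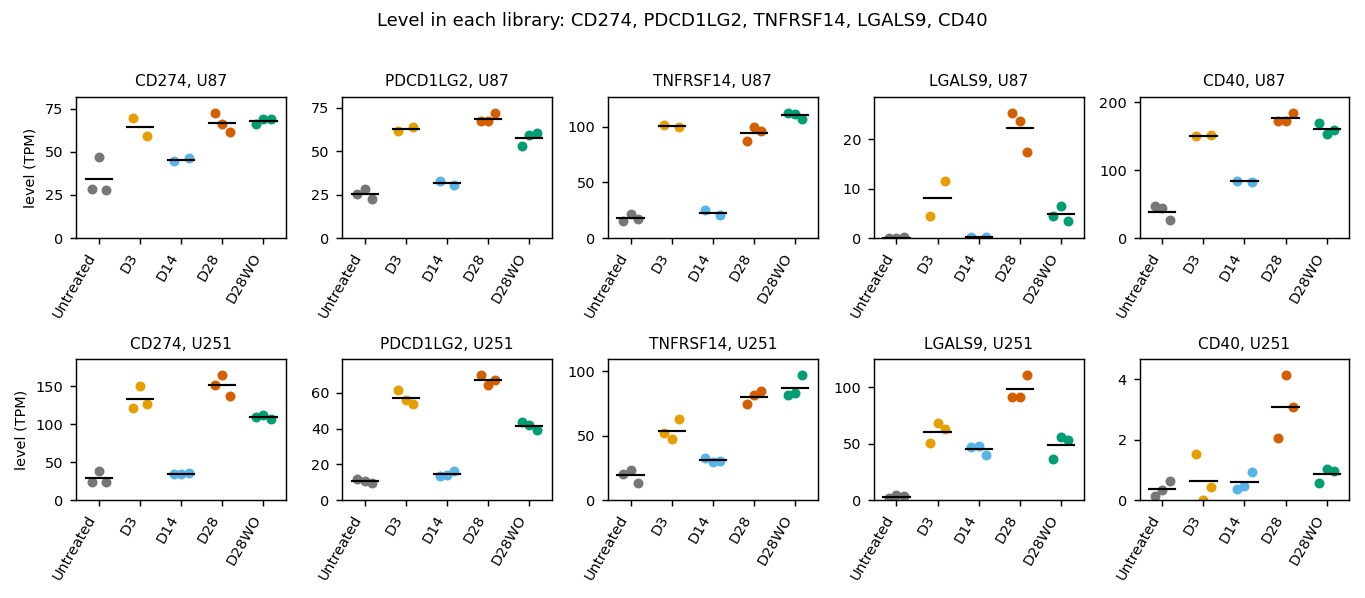
Level in TPM (vertical axis, linear, from 0, its own scale in each panel) of CD274, PDCD1LG2, TNFRSF14, LGALS9 and CD40 in every library of U87 (top) and U251 (bottom), by group (horizontal axis); points are libraries and bars are group means. Levels are high at D3, D28 and D28WO and lower at D14, except that CD40 stays below 5 TPM in U251 and LGALS9 is at 40.2 TPM or more at D14 in U251.

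CD274, which encodes PD-L1, was at 24.8, 38.5 and 24.8 TPM in the Untreated libraries of U251, at 122, 150.3 and 127 TPM at D3, and at 152, 165 and 137 TPM at D28. No D3 or D28 library overlapped with Untreated. The log2 fold change was 2.17 (SE 0.14, adjusted p = 3.43e-08) at D3 and 2.36 (SE 0.14, adjusted p = 1.3e-08) at D28, a 4.53-fold and a 5.16-fold higher mean. At D28WO the libraries held 109.5, 112 and 106 TPM, still above Untreated by 1.89 (SE 0.14, adjusted p = 2.05e-07). Those labelled D14 held 34.4, 34.1 and 36.6 TPM, inside the Untreated range (adjusted p = 0.181).

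The log2 fold changes of CD274 in U87 were smaller numbers, but the difference between the lines was not tested. Untreated libraries held 28.7, 46.9 and 28.1 TPM, D3 69.96 and 59.3 TPM, D28 72.8, 66.4 and 61.7 TPM and D28WO 66.2, 68.9 and 69.4 TPM. All libraries of D3, D28 and D28WO lay above those of Untreated, and their group means fell within 64.6 to 68.2 TPM, with overlapping ranges from D3 to D28WO. CD274 rose at D3 (log2 fold change 0.92 (SE 0.18, adjusted p = 0.00613)), D28 (0.97 (SE 0.16, adjusted p = 0.0016)) and D28WO (0.9994 (SE 0.16, adjusted p = 0.000454)), each time at or just under the fold limit. Untreated replicate 2, at 46.9 TPM, was well above the other two, and without it the changes were 1.15, 1.21 and 1.23, past both limits. Without D3 replicate 2 the rise at D3 was 0.80 with an adjusted p of 0.0824, and with only these 2 groups in the fit the adjusted p was 0.121. In libraries labelled D14 CD274 was at 44.5 and 46.4 TPM, overlapping with Untreated (adjusted p = 0.189). Without Untreated replicate 2 the change there went from 0.42 to 0.66, with an adjusted p of 0.0111.

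The 250 bases before the RefSeq start of CD274 (GRCh38.p14, chr9:5450292-5450541, plus strand) are shown because CD274 was the only member whose window held either of 2 interferon motifs searched. Of the members, 8 had such a window in RefSeq, CD276 with 2, and CD40 and PDCD1LG2 had none. Capitals mark a match to the interferon motif GAS (TTCNNNGAA), which starts 125 bases before the start, and 2 overlapping matches to an IRF element (GAAANNGAAA, here on the minus strand) that start 208 and 202 bases before it. On either strand, 6.57% of 35116 RefSeq windows of this length hold the first motif and 3.02% the second.
CD274: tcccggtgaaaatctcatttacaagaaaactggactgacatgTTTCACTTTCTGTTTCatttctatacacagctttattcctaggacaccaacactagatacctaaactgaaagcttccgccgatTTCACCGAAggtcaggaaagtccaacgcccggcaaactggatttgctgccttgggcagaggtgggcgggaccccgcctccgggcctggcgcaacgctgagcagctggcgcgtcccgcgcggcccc
TNFRSF14 and LGALS9, which were higher past both limits at D3, D28 and D28WO in both lines, and CD276, which fell in these groups, held neither motif in the same 250 bases, and are shown for comparison in lower case throughout (chr1:2556121-2556370, chr17:27630938-27631187 and the first window of CD276 at chr15:73684133-73684382, all plus strand). A match is a description of the letters, and its absence says only that these letters are not in this window.
TNFRSF14: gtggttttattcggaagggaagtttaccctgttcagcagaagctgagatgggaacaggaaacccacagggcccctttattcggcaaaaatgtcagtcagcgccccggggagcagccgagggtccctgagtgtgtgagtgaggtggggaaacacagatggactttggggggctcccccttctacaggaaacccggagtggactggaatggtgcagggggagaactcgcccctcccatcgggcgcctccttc
LGALS9: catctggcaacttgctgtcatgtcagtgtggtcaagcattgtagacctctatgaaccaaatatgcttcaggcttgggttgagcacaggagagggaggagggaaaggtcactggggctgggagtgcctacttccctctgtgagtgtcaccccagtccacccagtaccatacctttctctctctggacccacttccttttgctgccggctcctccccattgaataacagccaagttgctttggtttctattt
CD276: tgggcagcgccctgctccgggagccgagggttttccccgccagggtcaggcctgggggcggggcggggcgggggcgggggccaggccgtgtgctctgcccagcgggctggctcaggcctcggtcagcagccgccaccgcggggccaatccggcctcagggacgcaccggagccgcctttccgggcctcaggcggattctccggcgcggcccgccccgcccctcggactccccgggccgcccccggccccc

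PDCD1LG2, the gene of the other PD-1 ligand, lies on the same strand of chromosome 9, with 39965 bases between the end of CD274 and its start in GENCODE release 44. Its libraries were tight. In U87 it was at 25.1, 28.4 and 22.3 TPM in Untreated, 61.7 and 63.8 at D3, 67.3, 67.3 and 72.2 at D28 and 53.2, 59.6 and 60.6 at D28WO. No library of these 3 groups overlapped with Untreated, and the log2 fold changes were 1.29 (SE 0.11, adjusted p = 1.29e-05), 1.42 (SE 0.10, adjusted p = 1.68e-06) and 1.17 (SE 0.10, adjusted p = 4.04e-06). The change at D28WO was 0.94 with median-ratio size factors and 0.87 after quantile normalization, under the fold limit.

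In U251 PDCD1LG2 rose from 11.8, 10.6 and 9.87 TPM in Untreated to 61.3, 55.7 and 53.4 at D3 and 69.7, 64.5 and 67.1 at D28. The log2 fold changes were 2.30 (SE 0.09, adjusted p = 3.01e-10) and 2.54 (SE 0.09, adjusted p = 9.31e-11). At D28WO PDCD1LG2 was at 43.7, 41.9 and 39.1 TPM, 1.86 (SE 0.09, adjusted p = 3.67e-09) above Untreated. Libraries labelled D14 held 13.6, 14.1 and 16.1 TPM, also above all Untreated libraries, by 0.41 (SE 0.09, adjusted p = 0.00618). That adjusted p was 0.0538 with quantile normalization and 0.083 with only these 2 groups in the fit. In U87 the D14 libraries, at 32.8 and 30.4 TPM, lay above all Untreated libraries without passing the test (adjusted p = 0.111).

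The balance of the PD-1 ligands differed between the tables, which were normalized separately. CD274 was 0.97 to 1.44 times PDCD1LG2 in the group means of U87 and 2.26 to 2.74 times in those of U251, as a mean of the ratios in TPM within libraries. In U87 the ratio was 1.35 ± 0.27 (SD, n = 3) in Untreated and 0.97 ± 0.11 (SD, n = 3) at D28. In U251 it was 2.74 ± 0.78 (SD, n = 3) and 2.26 ± 0.26 (SD, n = 3). The spread of the Untreated ratio came with CD274 of replicate 2, which was the highest Untreated library of both lines.

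**Figure D2:**
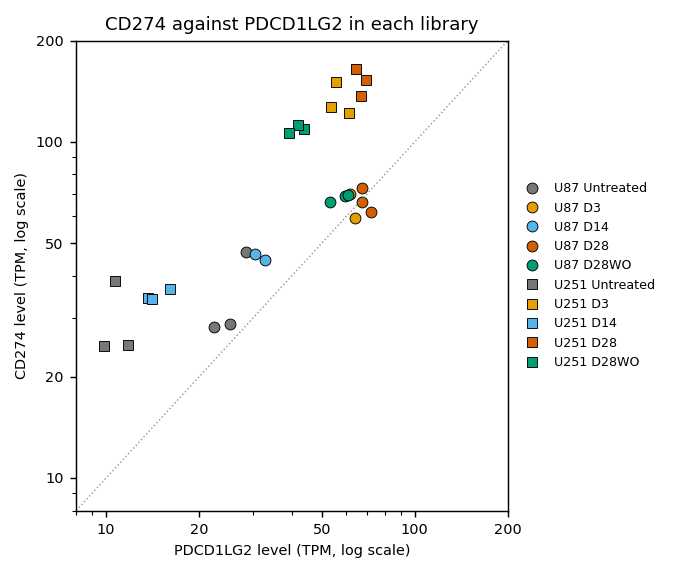
CD274 against PDCD1LG2 in every library (TPM, both axes logarithmic); circles are U87, squares are U251, colours are groups, and the dotted line marks equal levels. U87 libraries lie near the line and U251 libraries above it, at ratios up to 3.61, and in both lines D14 libraries sit beside the Untreated ones.

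Among 17 genes known to regulate PD-L1, all tested, 11 rose and 2 fell at D28 in U87, 4 of them past both limits. Among these 4 were IRF1 (1.84 on the log2 scale) and STAT2 (1.28), transcription factors of the interferon response. In U251 8 rose and 6 fell at D28, with 5 higher and 1 lower past both limits. SOCS1, the feedback inhibitor of JAK kinases, changed by 3.61, JAK2 by 2.46 and IRF1 by 2.08. For reference, 17.2% of all genes rose and 6.55% fell in U87 at D28, and 25.9% and 14.7% in U251. Past both limits, 6.77% of all genes were higher in U87, and 11.9% were higher and 3.35% lower in U251. The median of the list was 0.40 in U87 and 0.087 in U251.

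JAK2 is also a neighbour of CD274, ending 320555 bases before it on chromosome 9. Of 10 listed neighbours of CD274 and PDCD1LG2, JAK2 alone rose at D28 in U87 (1.15 (SE 0.16, adjusted p = 0.000435)) among 7 tested, against 17.2% of all genes, and none fell. In U251 3 of 9 rose and 2 fell at D28, against 25.9% and 14.7% of all genes. Only JAK2 and RLN1, a relaxin gene, passed both limits (RLN1 -1.19 (SE 0.41, adjusted p = 0.0311)), where 11.9% of all genes were higher and 3.35% lower. PLGRKT, 12578 bases before CD274, had a log2 fold change of -0.32 (SE 0.11, adjusted p = 0.0639) in U87 and 0.51 (SE 0.10, adjusted p = 0.00094) in U251, and was named after its values were seen.

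TNFRSF14, which encodes HVEM, was several times higher at D3, D28 and D28WO than in Untreated. In U87 it was at 15.3, 21.2 and 17.3 TPM in Untreated and 25.2 and 20.3 in libraries labelled D14, but at 101 and 99.6 at D3, 86.7, 99.8 and 95.8 at D28 and 112, 111 and 107 at D28WO. The log2 fold changes were 2.43 (SE 0.13, adjusted p = 4.43e-07), 2.34 (SE 0.12, adjusted p = 1.39e-07) and 2.56 (SE 0.12, adjusted p = 4.6e-08) at D3, D28 and D28WO, and D28WO was the highest group. At D14 the adjusted p was 0.16.

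In U251 TNFRSF14 went from 20.5, 23.9 and 13.5 TPM to 52.4, 47.4 and 62.8 at D3, 75.04, 81.8 and 84.8 at D28 and 81.9, 83.4 and 97.2 at D28WO. D28 and D28WO overlapped, and both lay above every D3 library. The changes against Untreated were 1.47 (SE 0.16, adjusted p = 6.81e-06), 2.04 (SE 0.16, adjusted p = 2.63e-07) and 2.16 (SE 0.16, adjusted p = 2.69e-07). Libraries labelled D14, at 32.9, 29.9 and 30.9 TPM, were higher than Untreated by 0.70 (SE 0.16, adjusted p = 0.00697), and with only these 2 groups in the fit the adjusted p was 0.0777. The antisense gene TNFRSF14-AS1 overlaps the 5′ end of TNFRSF14 and the strand of the counting is not given, so reads of the pair cannot be told apart there. It was lower throughout, at 3.68 TPM in Untreated and 12.97 TPM at D28WO in U87.

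LGALS9 encodes galectin-9, a ligand of the T cell receptor TIM-3. In Untreated U87 it was listed at 0, 0 and 0.128 TPM and in libraries labelled D14 at 0.111 and 0.106 TPM. It was at 4.53 and 11.5 TPM at D3, 25.3, 23.7 and 17.4 TPM at D28 and 4.52, 6.52 and 3.42 TPM at D28WO. No library of these 3 groups overlapped with Untreated, and D28 lay above every other group. The log2 fold changes of 3.00 (SE 0.35, adjusted p = 0.000201), 4.46 (SE 0.31, adjusted p = 2.2e-06) and 2.45 (SE 0.31, adjusted p = 9.33e-05) depend on the pseudocount of 1, since Untreated was near 0. With a pseudocount of 0.1 they were 5.80, 7.38 and 5.18. LGALS9 was tested in U87 through the groups in which it was high.

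In U251 LGALS9 was present from the start, at 1.82, 4.55 and 3.50 TPM, and rose to 50.5, 68.1 and 63.03 at D3, 91.6, 91.9 and 111 at D28 and 37.01, 55.97 and 53.5 at D28WO. In libraries labelled D14 it was past both limits, with 47.6, 48.3 and 40.2 TPM and a log2 fold change of 3.48 (SE 0.22, adjusted p = 1.13e-07). The other changes were 3.89 (SE 0.22, adjusted p = 9.39e-09), 4.58 (SE 0.22, adjusted p = 1.62e-09) and 3.57 (SE 0.22, adjusted p = 3.18e-08). D14 and D28WO overlapped, as did D28WO and D3. The near-identical paralogs LGALS9B and LGALS9C could share reads with LGALS9 and were at no more than 4.24 TPM in a U251 library. ENSG00000266728, which overlaps LGALS9 on the same strand, was listed at 0 in the Untreated libraries of U251, and its D28 libraries held 26.99, 30.95 and 30.9 TPM, so that the level of LGALS9 is uncertain to that extent.

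CD40, a receptor that T cells engage through CD40 ligand, was abundant in the table of U87 and near 0 in that of U251. In U87 it was at 46.5, 43.99 and 26.1 TPM in Untreated, 150.5 and 151 at D3, 172, 173 and 184 at D28 and 169, 154 and 159 at D28WO, and no group overlapped with another. The log2 fold changes were 1.97 (SE 0.18, adjusted p = 2.65e-05), 2.20 (SE 0.16, adjusted p = 2.9e-06) and 2.06 (SE 0.16, adjusted p = 2.71e-06). In libraries labelled D14 CD40 was past both limits, at 84.3 and 82.4 TPM (1.12 (SE 0.18, adjusted p = 0.00947)). That call rested on few libraries. The change was 0.87 without Untreated replicate 3, 0.95 with median-ratio size factors and 0.92 after quantile normalization, and the adjusted p was 0.0924 without D14 replicate 2 and 0.0758 without D14 replicate 3.

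In U251 CD40 was near the lower end of the table, at 0.134, 0.339 and 0.632 TPM in Untreated and 1.52, 0 and 0.435 TPM at D3. D28 was the highest group, at 2.07, 4.14 and 3.07 TPM, above all other libraries, with a log2 fold change of 1.56 (SE 0.33, adjusted p = 0.00175). That change depends on the pseudocount of 1, since Untreated was near 0, and the ratio of the mean TPM was 8.39. At D28WO CD40 was at 0.588, 1.03 and 0.956 TPM (adjusted p = 0.363). After quantile normalization the change at D28 was 1.00, just under the fold limit, with an adjusted p of 0.0303.

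Of 11 genes of the CD40 signal chain, all tested in both lines, 8 rose and 1 fell at D28 in U87 and 5 rose and 1 fell in U251. Of all genes tested, 17.2% rose and 6.55% fell in U87, and 25.9% and 14.7% in U251. TRAF1, an adaptor of TNF receptors, was the only gene of the list past both limits in U87 at D28 (1.26 (SE 0.19, adjusted p = 0.000741)), where 6.77% of all genes were higher. In U251, where CD40 itself was low, TRAF1 (1.21 (SE 0.13, adjusted p = 4.33e-06)) and RELB (1.09 (SE 0.12, adjusted p = 5.38e-06)), a subunit of NF-κB, passed both limits, where 11.9% were higher. The medians of the list were 0.68 and 0.15.

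CD276, which encodes B7-H3, was the most abundant member in Untreated cells and moved the other way. In U87 it fell from 220.2, 211 and 219 TPM to 179 and 151 at D3, 171, 161 and 182 at D28 and 122, 120.5 and 134 at D28WO. All libraries of the treated groups lay below those of Untreated, and those of D28WO below all others. CD276 fell by 0.40 on the log2 scale at D3 (SE 0.08, adjusted p = 0.00889), by 0.34 at D28 (SE 0.07, adjusted p = 0.00751) and by 0.78 at D28WO (SE 0.07, adjusted p = 1.1e-05). After quantile normalization the changes at D3 and D28 were -0.25 and -0.19, with adjusted p of 0.0853 and 0.121. Without D3 replicate 3 the change at D3 was -0.28, with an adjusted p of 0.0814. With median-ratio size factors the change at D28WO was -1.02, past both limits.

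In U251 CD276 was at 235, 221 and 224 TPM in Untreated, 145, 177 and 165 at D3, 168, 162 and 189 at D28 and 148, 146 and 157 at D28WO. These 3 groups did not overlap with Untreated, and CD276 fell by 0.48 (SE 0.09, adjusted p = 0.000486), 0.39 (SE 0.09, adjusted p = 0.00231) and 0.59 (SE 0.09, adjusted p = 0.000148). Libraries labelled D14, at 225, 209.7 and 183 TPM, overlapped with Untreated (adjusted p = 0.272). For CD276 in U87 at D14 the adjusted p was 0.0523, with 176 and 172 TPM, and 0.0424 with array weights and 0.0429 with median-ratio size factors.

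**Figure D3:**
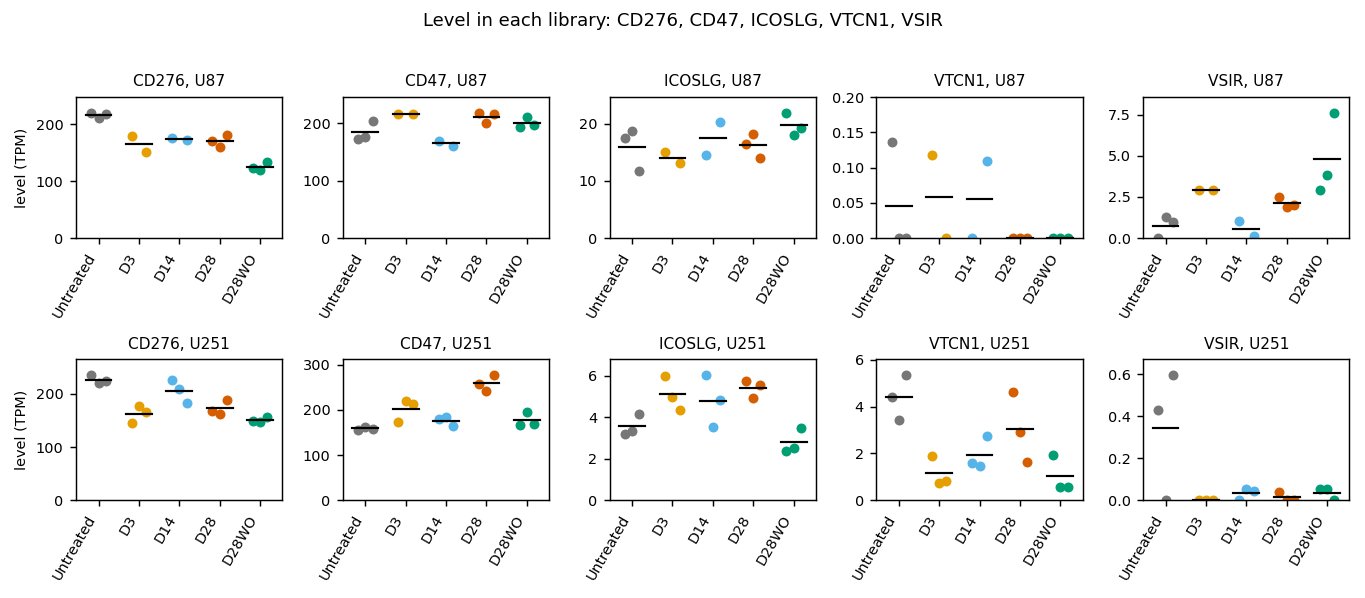
Level in TPM (vertical axis, linear, from 0, its own scale in each panel) of CD276, CD47, ICOSLG, VTCN1 and VSIR in every library of U87 (top) and U251 (bottom), by group (horizontal axis); points are libraries and bars are group means. CD276 is highest in Untreated in both lines, VTCN1 in U87 stays below 0.2 TPM and VSIR in U251 below 0.6 TPM.

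CD47 was abundant in every library, at 161 TPM or more in U87 and 156 TPM or more in U251. In U251 it rose from 156, 162 and 158 TPM to 174, 219.7 and 213 at D3 and 258, 242 and 277 at D28, by 0.34 (SE 0.09, adjusted p = 0.00744) and 0.70 (SE 0.09, adjusted p = 2.74e-05). All D28 libraries were above all others. With median-ratio size factors the change at D3 was 0.23, with an adjusted p of 0.0859. At D28WO the libraries held 166, 196 and 168 TPM (adjusted p = 0.253).

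In U87 no change of CD47 against Untreated passed the test, but at D3, D28 and D28WO this depended on the scaling. It was at 173, 176 and 204 TPM in Untreated, 216 and 216 at D3, 218, 201 and 216 at D28 and 194, 211 and 197 at D28WO. The log2 fold change was 0.23 at D3 (95% confidence interval 0.06 to 0.41, adjusted p = 0.0642) and 0.20 at D28 (0.05 to 0.36, adjusted p = 0.0576). After quantile normalization, where all genes had medians of -0.023 (D3), -0.026 (D28) and -0.019 (D28WO), CD47 was higher by 0.37, 0.34 and 0.30 (adjusted p = 0.0013, 0.000717 and 0.000526). Median-ratio size factors gave -0.11 at D28WO. Without Untreated replicate 3, the highest Untreated library, the changes were 0.31, 0.28 and 0.20 (adjusted p = 0.018, 0.0148 and 0.0279). With array weights the adjusted p was 0.0354 at D3 and 0.0462 at D28.

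Of 8 partners and modifying enzymes of CD47, all tested, 2 rose and 1 fell at D28 in U87, where 17.2% of all genes rose and 6.55% fell, and 5 fell in U251, where 14.7% fell. THBS1, the CD47 ligand thrombospondin-1, was lower past both limits in U87 (-1.56 (SE 0.24, adjusted p = 0.000918)), as 0.611% of all genes were. SIRPA, the receptor of CD47, was lower past both limits in U251 (-1.47 (SE 0.05, adjusted p = 9.31e-11)), as 3.35% were. The medians of the list were -0.064 in U87 and -0.32 in U251.

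ICOSLG, the ligand of the costimulatory receptor ICOS, was at 11.8 to 21.9 TPM over the 13 libraries of U87 and 2.37 to 6.03 TPM over the 15 of U251. No change against Untreated passed the test. In U87 the adjusted p was 0.204 or more in each comparison with Untreated, and every group overlapped with Untreated. In U251 D28 libraries, at 5.74, 4.95 and 5.55 TPM, lay above Untreated ones, at 3.21, 3.35 and 4.16 TPM, with a log2 fold change of 0.49 (95% confidence interval 0.05 to 0.93, adjusted p = 0.0725). After quantile normalization that change was -0.0033, and with array weights the adjusted p was 0.0419.

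VTCN1, whose product B7-H4 inhibits T cells, was at 4.43, 3.41 and 5.34 TPM in Untreated U251, 1.90, 0.757 and 0.822 at D3 and 1.95, 0.576 and 0.564 at D28WO. Both groups lay below Untreated, by -1.34 (SE 0.34, adjusted p = 0.00642) and -1.46 (SE 0.34, adjusted p = 0.00571) on the log2 scale. D28 spread from 1.63 to 4.63 TPM and overlapped with Untreated (adjusted p = 0.313). Libraries labelled D14, at 1.59, 1.45 and 2.72 TPM, all lay below Untreated, with a log2 fold change of -0.89 (SE 0.34, adjusted p = 0.0832), and after quantile normalization it was -1.18, with an adjusted p of 0.0326. In U87 VTCN1 was listed at 0 in 10 of 13 libraries and at no more than 0.137 TPM in the others.

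VSIR encodes VISTA, a B7 family ligand and receptor. In U87 it was at 0, 1.28 and 0.975 TPM in Untreated and 2.92, 3.82 and 7.62 TPM at D28WO, the highest group, with a log2 fold change of 1.73 (SE 0.39, adjusted p = 0.00377). At D3 it was at 2.90 and 2.93 TPM and at D28 at 2.52, 1.90 and 2.03 TPM, above Untreated without passing the test (adjusted p = 0.0689 and 0.106). VSIR lies inside CDH23 on the other strand. CDH23 was at 2.36 TPM in Untreated, 27.6 TPM at D28 and 5.59 TPM at D28WO. The strand of the counting is not given, and whether reads of CDH23 enter the level of VSIR was not tested. In U251 VSIR was at no more than 0.595 TPM.

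**Figure D4:**
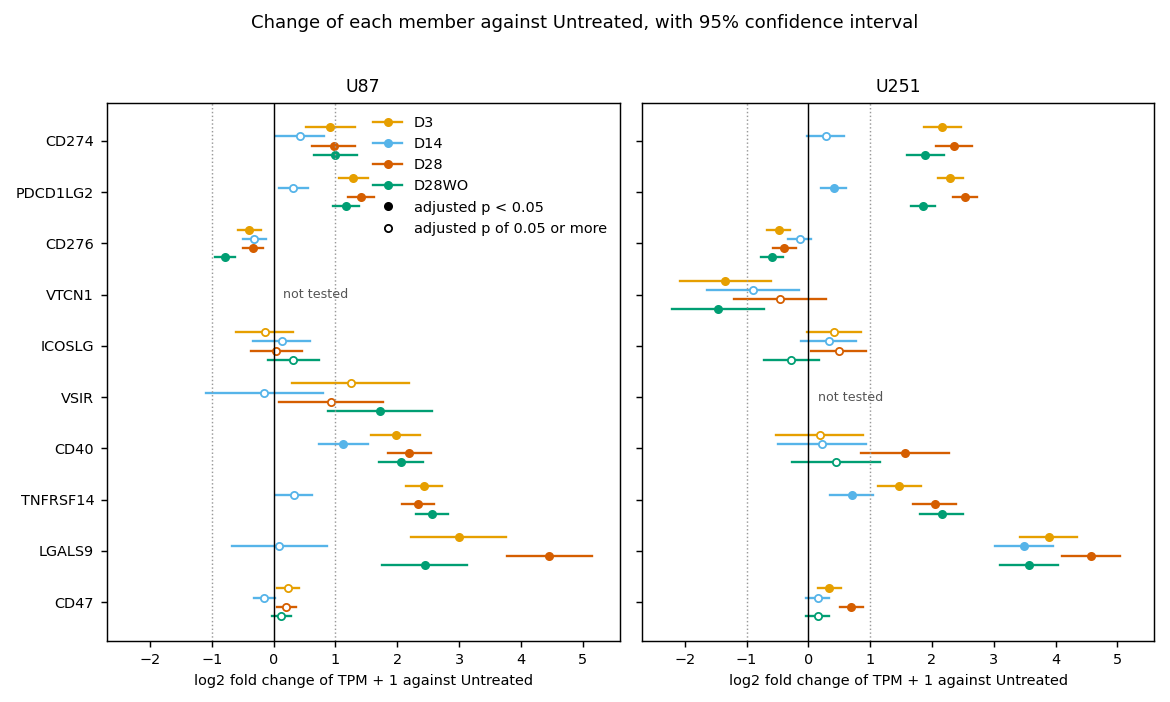
Log2 fold change of TPM + 1 against Untreated (horizontal axis) of each member (vertical axis) at D3, D14, D28 and D28WO, in U87 (left) and U251 (right), with 95% confidence intervals from limma. Filled points have an adjusted p under 0.05, dotted lines mark a change of 1 in either direction, LGALS9 has the largest change at D3 and D28 in both lines, and CD276 lies below 0 in every group.

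Withdrawal of IFN-γ, as given in the labels, was compared with its continuation at day 28. In U87, 1 of 9 members was lower past both limits in D28WO than in D28, where 2.42% of all genes were lower. This was LGALS9 (-2.01 (SE 0.31, adjusted p = 0.00136)), whose D28WO libraries, at 4.52, 6.52 and 3.42 TPM, were all below the lowest D28 library, at 17.4 TPM. CD276 changed by -0.44 (SE 0.07, adjusted p = 0.00209). PDCD1LG2 libraries of D28WO all lay below those of D28, with a log2 fold change of -0.25 (SE 0.10, adjusted p = 0.0967), and its adjusted p was 0.0381 with median-ratio size factors and 0.0192 after quantile normalization. CD274 was within -0.32 to 0.38 of its D28 level on the log2 scale (95% confidence interval, adjusted p = 0.939), and TNFRSF14 gave an adjusted p of 0.213.

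In U251, 7 of 9 members fell between D28 and D28WO, where 18.8% of all genes fell, and 2 were past both limits, where 8.14% were lower. The median of all genes was -0.12 in this comparison and that of the 9 members -0.68. The genes past both limits were LGALS9 (-1.01 (SE 0.22, adjusted p = 0.00331)) and CD40 (-1.12 (SE 0.33, adjusted p = 0.0208)). Of the others, PDCD1LG2 fell by 0.68 (SE 0.09, adjusted p = 0.000101), CD47 by 0.55 (SE 0.09, adjusted p = 0.000422) and CD274 by 0.46 (SE 0.14, adjusted p = 0.0217). ICOSLG changed by -0.77 (SE 0.21, adjusted p = 0.0126) and VTCN1, just inside the fold limit, by -0.9996 (SE 0.34, adjusted p = 0.0431). TNFRSF14 was the highest in D28WO, as in U87, and overlapped with D28 (adjusted p = 0.637).

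Several of these calls in U251 rested on single libraries or on the scaling. LGALS9 was under the fold limit with median-ratio size factors (-0.92), with array weights (-0.98), without D28 replicate 3 (-0.92) and without D28WO replicate 1 (-0.82). CD40 had an adjusted p of 0.0821 without D28 replicate 2, 0.0518 without D28 replicate 3 and 0.0712 without D28WO replicate 1. After quantile normalization it changed by -0.67, with an adjusted p of 0.167, and with a pseudocount of 0.1 by -1.72, with an adjusted p of 0.151. For CD274 the adjusted p was 0.0545 to 0.0886 without D28 replicate 1 or 2 or D28WO replicate 1 or 3, and 0.0567 with median-ratio size factors. VTCN1 had an adjusted p of 0.0989 to 0.167 without D28 replicate 1 or 2 or D28WO replicate 2 or 3, and -1.28 and -1.30, past both limits, without D28 replicate 3 and D28WO replicate 1. After quantile normalization VTCN1 changed by -0.54 (adjusted p = 0.3) and ICOSLG by -0.31 (adjusted p = 0.307), and with median-ratio size factors the adjusted p of VTCN1 was 0.0518.

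The libraries labelled D14 were compared with those before and after them. In U87, 2 members were lower past both limits than at D3, where 2.05% of all genes were lower, and 5 fell, where 3.32% fell. The former were TNFRSF14 (-2.10 (SE 0.14, adjusted p = 5.34e-06)) and LGALS9 (-2.91 (SE 0.39, adjusted p = 0.000932)), and the others PDCD1LG2 (-0.97 (SE 0.12, adjusted p = 0.000512)), CD40 (-0.85 (SE 0.20, adjusted p = 0.0316)) and CD47 (-0.38 (SE 0.09, adjusted p = 0.0269)). With 2 libraries on each side and only these in the fit, the adjusted p was 0.0749 or more for each of the 5. The calls of CD40 and CD47 also had an adjusted p of 0.092 to 0.16 when any 1 of the 4 libraries compared was left out, and that of CD47 was 0.217 with median-ratio size factors. From D14 to D28 4 members rose past both limits, where 1.78% of all genes were higher, namely PDCD1LG2 (1.10), CD40 (1.07), TNFRSF14 (2.01) and LGALS9 (4.37). The adjusted p of CD40 in that step was 0.0584 without D14 replicate 2 and 0.0613 without D14 replicate 3.

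In U251, CD274 (-1.89 (SE 0.14, adjusted p = 4.96e-07)) and PDCD1LG2 (-1.89 (SE 0.09, adjusted p = 1.25e-08)) were lower past both limits in libraries labelled D14 than at D3, where 3.29% of all genes were lower. TNFRSF14 fell by 0.77 (SE 0.16, adjusted p = 0.00318) and CD276 rose by 0.34 (SE 0.09, adjusted p = 0.0102), with an adjusted p of 0.0502 without D14 replicate 1. LGALS9 did not pass the test (adjusted p = 0.202). From D14 to D28 5 members were higher past both limits, where 4.23% of all genes were higher. These were CD274 (2.08), PDCD1LG2 (2.13), TNFRSF14 (1.34), CD40 (1.34) and LGALS9 (1.10). With a pseudocount of 0.1 CD40 changed by 2.23 in that step, with an adjusted p of 0.0841.

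The study describes a split of the cultures at day 14. By that account D28WO cells passed through the same first 14 days as D14 cells. In U87 D28WO was higher past both limits for 3 members, where 6.3% of all genes were higher, namely TNFRSF14 (2.23 (SE 0.13, adjusted p = 7.81e-07)), LGALS9 (2.36 (SE 0.35, adjusted p = 0.000548)) and VSIR (1.88 (SE 0.43, adjusted p = 0.00787)). Without D14 replicate 3 the adjusted p of VSIR was 0.0932. In all 7 rose, where 14.3% of all genes rose, and CD276 fell. Of these, CD274 and CD47 had an adjusted p of 0.0685 to 0.169 without D14 replicate 2 or 3 or D28WO replicate 2, and CD274 also of 0.0748 and 0.0822 without D28WO replicate 1 or 3. With median-ratio size factors the adjusted p of CD47 was 0.275. In U251 the 3 members past both limits were CD274 (1.62 (SE 0.14, adjusted p = 1.73e-06)), PDCD1LG2 (1.45 (SE 0.09, adjusted p = 1.13e-07)) and TNFRSF14 (1.45 (SE 0.16, adjusted p = 1.74e-05)), where 1.78% of all genes were higher. LGALS9 and CD47 of U251 differed by 0.09 (95% confidence interval -0.38 to 0.56) and 0.00 (-0.19 to 0.19), and neither passed the test. CD276 changed by -0.45 (SE 0.09, adjusted p = 0.00162) and ICOSLG by -0.60 (SE 0.21, adjusted p = 0.0444). The adjusted p of ICOSLG was 0.101 to 0.165 without D14 replicate 1 or 3 or D28WO replicate 1 or 2, 0.0622 with median-ratio size factors and 0.203 after quantile normalization.

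The members were unequal in level. As values per length, levels of different genes within a line can be set side by side. Summed over the 10 members, U87 libraries held 534 ± 11.6 TPM in Untreated, 785 ± 22.4 at D3, 541 ± 11.04 at D14, 829.7 ± 16.7 under continued IFN-γ (D28) and 752 ± 5.68 after withdrawal (SD, n = 2 or 3). U251 libraries held 457 ± 11.8, 676 ± 55.96, 516 ± 32.0, 840.2 ± 30.8 and 619 ± 25.3 TPM. CD276 and CD47 made up 75.0% of the sum in Untreated U87. CD276 had the highest mean of the members in Untreated and D14, and CD47 in D3, D28 and D28WO, in both lines.

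**Figure D5:**
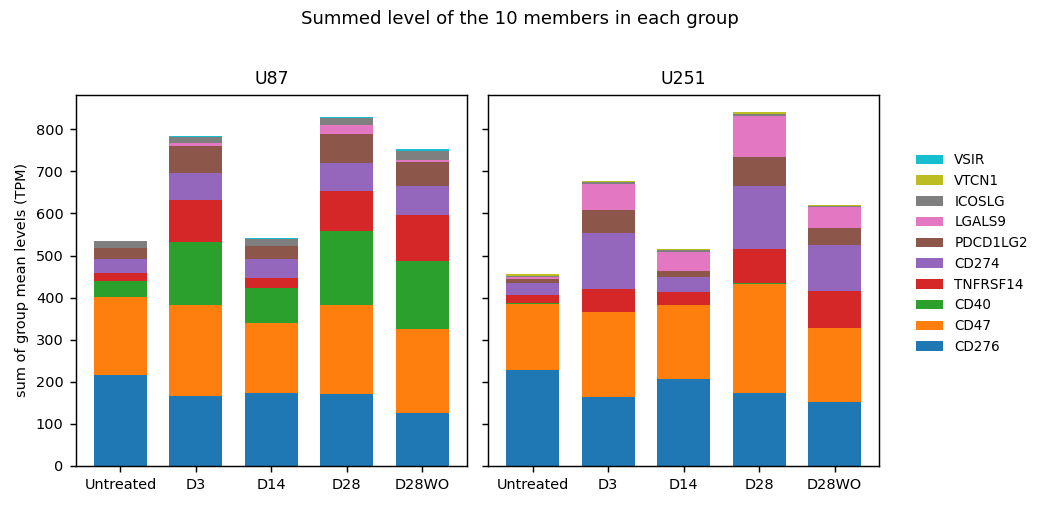
Sum of the group mean levels of the 10 members (TPM, vertical axis from 0) by group (horizontal axis) in U87 (left) and U251 (right), with a coloured segment for each member. The bars are tallest at D28 in both lines, CD40 is a visible segment in U87 only, and the CD276 segment is largest in Untreated.

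For the 8 members tested in both lines, which leaves out VTCN1 and VSIR, the genes whose log2(TPM + 1) followed them most closely in both lines were sought among 20473 genes tested in both, by the lower of the Pearson correlations over the 13 libraries of U87 and the 15 of U251. These libraries share their groups, and the correlations are a description. CD274 was nearest to FNDC3A (0.95 in U87 and 0.97 in U251), RGS9 and APOBEC3G. PDCD1LG2 was nearest to USP30-AS1 (0.98 and 0.98), HLA-DOA and CIITA, the transactivator of HLA class II genes. TNFRSF14 was nearest to PSMB10 (0.97 and 0.97), a subunit of the immunoproteasome, IRF1-AS1 and APOBEC3G, and LGALS9 to CMPK2 (0.95 and 0.98), SAMD9 and HLA-DRA. CD40 was nearest to DDIT4L (0.88 and 0.86), SLAMF8 and CCL3, and CD47 to ENSG00000293116 (0.83 and 0.86), AIM2 and ERAP2. CD276 followed SNRPD2 (0.91 and 0.94), UQCRH and TUBB4B, and ICOSLG had the lowest correlations of the 8, with SH3RF1 (0.79 and 0.73), MSTO2P and RASEF.

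Of 12 other B7 and butyrophilin family genes, 8 were tested in each line, and CD80 and CD86, the ligands of CD28 and CTLA-4, were below the filter in both. In U87 at D28, 4 rose, all past both limits, where 6.77% of all genes were higher. The largest changes were those of BTN2A2 (1.78 (SE 0.11, adjusted p = 1.04e-06)), BTN3A1 (1.74 (SE 0.11, adjusted p = 1.05e-06)) and BTN3A3 (1.45 (SE 0.09, adjusted p = 1.13e-06)), the BTN3A genes being known for the activation of γδ T cells. In U251 at D28, 6 rose and 1 fell, against 25.9% and 14.7% of all genes, with 4 higher and 1 lower past both limits, against 11.9% and 3.35%. BTN3A1 (1.92 (SE 0.06, adjusted p = 1.16e-11)), ILDR2 (-1.62 (SE 0.23, adjusted p = 8.17e-05)) and BTN3A3 (1.34 (SE 0.08, adjusted p = 1.29e-08)) changed most. In libraries labelled D14, limma called 0 of the 8 in U87 (2 at an unadjusted p under 0.05), where 5.16% of all genes were called in either direction, and 5 rose in U251, where 13.8% of all genes rose. The medians of the list at D28 were 0.66 and 0.89.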

How the data were processed

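The deposited values were used as TPM, 1 table for each line. The study's sample sheet calls them CPM, but the lowest values above 0, in genes listed at 0 in some library, fell with the exon bases of a gene in GENCODE. The authors trimmed reads, aligned them with STAR to GRCh38 and counted them with featureCounts, after sequencing at least 50 M reads per sample. How the authors computed TPM is not given in the sources used here. TPM keeps no depth, and the precision of a value rests on the spread of 2 or 3 libraries. Counts were not used here, so edgeR, which the authors used, was not run. Of the per-sample columns, 2 carry the same name and were not used.

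Samples were grouped by their labels. The scale was log2(TPM + 1) and the test that of limma 3.58.1 in R 4.3.3 (lmFit, then eBayes with its trend option). Each line had 1 fit over its 5 groups, without covariates, on the 22918 genes of U87 and 23667 of U251 that averaged 0.5 TPM or more. P-values were adjusted by the Benjamini-Hochberg method over all genes tested in a line. The limits of 0.05 on the adjusted p and of 1 on the size of the log2 fold change are those of the study. There were 8 comparisons per line and 16 in all, and groups used in several comparisons are shared by them. The procedure was tested on simulated data.

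The members and gene lists were chosen with earlier results of these data known. The genes named were the 10 members, of each list up to 3 genes with the largest change among those past both limits, and the 3 genes most like each member. Of these, 1 gene is not reported here. Positions come from GENCODE release 44 and promoter windows from RefSeq (GRCh38.p14), in Python 3.11.15. The alternatives tried were another pseudocount, other filters, quantile and median-ratio scaling, fewer groups in the fit, array weights, a block for replicate number, the adjusted p alone, and leaving out each library.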

Additional observations from a re-analysis of the deposited data

Results flagged for a closer look

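CD47 was lower in libraries labelled D14 than in Untreated in U87 (log2 fold change -0.15) and higher in U251 (0.15). In U87 both D14 libraries (169.9 and 161 TPM) lay below all Untreated libraries (173, 176 and 204 TPM), and in U251 all 3 D14 libraries (179.9, 184 and 165 TPM) lay above all Untreated libraries (156, 162 and 158 TPM). The estimates had opposite signs, but both 95% confidence intervals held 0 (-0.32 to 0.02 in U87 and -0.04 to 0.34 in U251). All genes tested had medians of 0.15 and 0.096 in these comparisons. How many of all genes lay apart in this way was not counted. Neither change passed the test within its line (limma, adjusted p = 0.284 and 0.273), and the difference between the lines was not tested, because their tables were normalized separately. Groups of 2 or 3 libraries are too small for a test of single libraries.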

How the results depend on the processing

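The number of members past both limits was recomputed under each alternative, in 252 values over 16 comparisons, of which 20 moved by more than 1.5 times. In U87, D14 against Untreated gave 0 in place of 1 with median-ratio size factors, after quantile normalization and with only the 2 compared groups in the fit, and 0 to 1 with each library left out. D14 against D3 of U87 gave 0 with only the 2 compared groups. In U251, D14 against Untreated gave 2 after quantile normalization, and D28WO against D28 gave 1 in place of 2 with median-ratio size factors and after quantile normalization, and 1 to 2 with each library left out. With the adjusted p as the only limit, U87 gave 5 for D14 against D3, all lower, where 3.32% of all genes fell. It gave 8 for D28WO against D14, 7 of them higher, where 14.3% rose. U251 gave 3 for D14 against Untreated, all higher, where 13.8% rose, and 7 for D28WO against D28, all lower, where 18.8% fell. U87 also gave 2 for D28WO against D28, and U251 4 for D14 against D3 and 5 for D28WO against D14. For these last counts the share of all genes is not given, and nothing is read from them. The cause was not tested.

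For single members, 9 of 1670 values turned direction, none of them a change that had passed the test. CD274 in D28WO against D28 of U87 was -0.011 after quantile normalization, -0.015 with median-ratio size factors and -0.027 to 0.089 with each library left out (negative without D28 replicate 3). CD47 was -0.11 in D28WO against Untreated of U87 with median-ratio size factors. In U251, ICOSLG in D28 against Untreated was -0.0033 after quantile normalization, and in D28WO against D14 CD47 was -0.031 after quantile normalization, and -0.076 to 0.045 with each library left out (negative without D14 replicate 3, -0.046, and without D28WO replicate 2). LGALS9 in that comparison was -0.021 to 0.27 with each library left out (negative without D28WO replicate 2). The fits without the D14 group and without the D28WO group were added after seeing the data, and neither moved a count by more than 1.5 times. Some calls on the adjusted p were lost. Without D28WO, U87 gave adjusted p of 0.0919 for CD40 and 0.0609 for CD47 in D14 against D3, and 0.0644 for CD47 in D28 against D14. Without D14, VTCN1 in D28WO against D28 of U251 had an adjusted p of 0.0579.

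Replicate numbers are shared between groups, but libraries of the same number did not deviate together from their group means (43 pairs, r from -0.058 to 0.047, 0 over 0.1). With the replicate number as a block the counts were those of the fit without it, from 1 to 5 members in the 16 comparisons. The adjusted p of CD47 in U87 passed 0.05 with it, at 0.0507 for D14 against D3 and 0.0565 for D28 against D14.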

Other observations

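Among 7 TNF superfamily ligands that costimulate T cells, 4 of 5 tested rose in U87 at D28 and 2 of 4 in U251, where 17.2% and 25.9% of all genes tested rose. TNFSF18 (GITR ligand) and TNFSF14 (LIGHT, a partner of TNFRSF14) were the genes past both limits in both lines, where 6.77% of all genes were higher in U87 and 11.9% in U251. TNFSF18 changed by 1.84 in U87 and 1.19 in U251 and TNFSF14 by 1.62 and 1.62 on the log2 scale. Both were under 1 TPM in the Untreated means of both lines, so that these changes depend on the pseudocount of 1, and TNFSF14 in both lines and TNFSF18 in U87 were tested through the groups in which they were high. In U251 all 4 genes tested fell between D28 and D28WO, where 18.8% of all genes fell, 2 of them past both limits, where 8.14% were lower.

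Of 14 other inhibitory or adhesion ligands and enzymes, 12 were tested in each line. In U87 4 rose and 2 fell at D28, against 17.2% and 6.55% of all genes, and IDO1 (6.69), an enzyme of tryptophan breakdown, CEACAM1 (4.02), a ligand of TIM-3, and CD200 (1.49), a ligand of a myeloid inhibitory receptor, were past both limits, where 6.77% were higher. IDO1 and CEACAM1 were at 0.0795 and 0.233 TPM in the Untreated mean of U87, so that their changes depend on the pseudocount, and they were tested there through the groups in which they were high. In U251 6 rose and 4 fell, against 25.9% and 14.7% of all genes, and IDO1 (5.49), CEACAM1 (4.21) and CD24 (1.76), a ligand of Siglec-10, were past both limits, where 11.9% were higher. CD200, named for U251 after its values were seen, was lower there at D28 (-0.79, limma, adjusted p = 0.000796). Of 13 listed receptors of the members on immune cells, 6 were tested in each line, and PDCD1, CTLA4 and ICOS were tested in neither. Limma called 0 of the 6 in U87 at D28, with 0 at an unadjusted p under 0.05. In U251 3 rose and 1 fell, against 25.9% and 14.7% of all genes, and SIRPA (-1.47), CD160 (1.31) and BTLA (1.25) were past both limits, where 11.9% of all genes were higher and 3.35% lower. CD160 and BTLA were under 1 TPM in Untreated.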
